A study of Mus musculus with 6 samples.

Results

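Subunits of the vacuolar proton pump and genes of intercalated cells were followed in mpkCCD clone 11 cells, an immortalised line and single clone from the mouse kidney cortical collecting duct. Of the 10 genes chosen, 7 had a probe set with a single gene name, giving 12 of the 28225 probe sets measured. They were the specialised pump subunits Atp6v1b1 and Atp6v0a4, the ubiquitous subunits Atp6v1b2, Atp6v0a1 and Atp6v1a, and the intercalated cell genes Dmrt2 and Car2. Atp6v1c2, Atp6v0d2 and Foxi1 were not analysed here. The genes were picked by name with the changes of Atp6v1b1 and Atp6v0a4 between dDAVP and vehicle already known, so the values of that contrast are a description and support no claim.

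In all 6 samples the cells had grown into a polarized sheet with a resistance of 5 kohm per cm2 or more. They were then kept for 5 days with vehicle, the control group, or with 0.1 nM dDAVP, a synthetic vasopressin that activates the V2 receptor. Total RNA was hybridised to Affymetrix mouse expression arrays, 3 per group, which the labels number as biological replicates. Nothing says whether they came from separate cultures, so spreads and p-values describe these 6 samples.

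The vacuolar proton pump has a cytosolic sector that splits ATP and a membrane sector that carries protons. Most cells use it to acidify lysosomes and endosomes. Intercalated cells, which secrete acid or base beside the vasopressin-responsive principal cells, also place it at their surface, with their own isoforms of several subunits. Mutations of the human genes for subunits B1 and a4 cause distal renal tubular acidosis, in which urine is not acidified.

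Signals are log2 values, in which a step of 1 unit doubles the signal. The medians of the 6 arrays spanned 0.043 log2 units. Aqp2, the water channel that vasopressin induces, went from 6.70 ± 0.042 to 10.85 ± 0.072 log2 units (SD, n = 3). Of 13 principal cell markers 10 were measured, all 10 of them above 3.56, the level taken as a limit for dim probe sets (the 95th percentile of the means of 10 probe sets for olfactory receptors, assumed silent in kidney). Of 15 intercalated cell markers 6 were measured, 4 of them besides Atp6v1b1 and Atp6v0a4, and all 6 were above that limit. The median level of all probe sets, 6.72, was passed by 2 of these 6 and by 7 of the 10 principal cell markers. Probe sets for the intercalated anion exchangers Slc4a1, Slc4a9 and Slc26a4 were not analysed here.

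Both specialised subunits measured had higher signals in dDAVP cells, by 1.25-fold for Atp6v1b1 and 1.33-fold for Atp6v0a4, while the ubiquitous subunits had changes between -0.16 and 0.06 log2 units. None of the 12 probe sets passed the test over the whole table (0 at a limma adjusted p below 0.05, against 0.216% of all probe sets). An unadjusted p below 0.05 was seen for 2, Atp6v1b1 and Atp6v0a4, against 7.98% of all probe sets. Nothing is read from these counts, since the genes were chosen on this contrast.

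**Figure D1:**
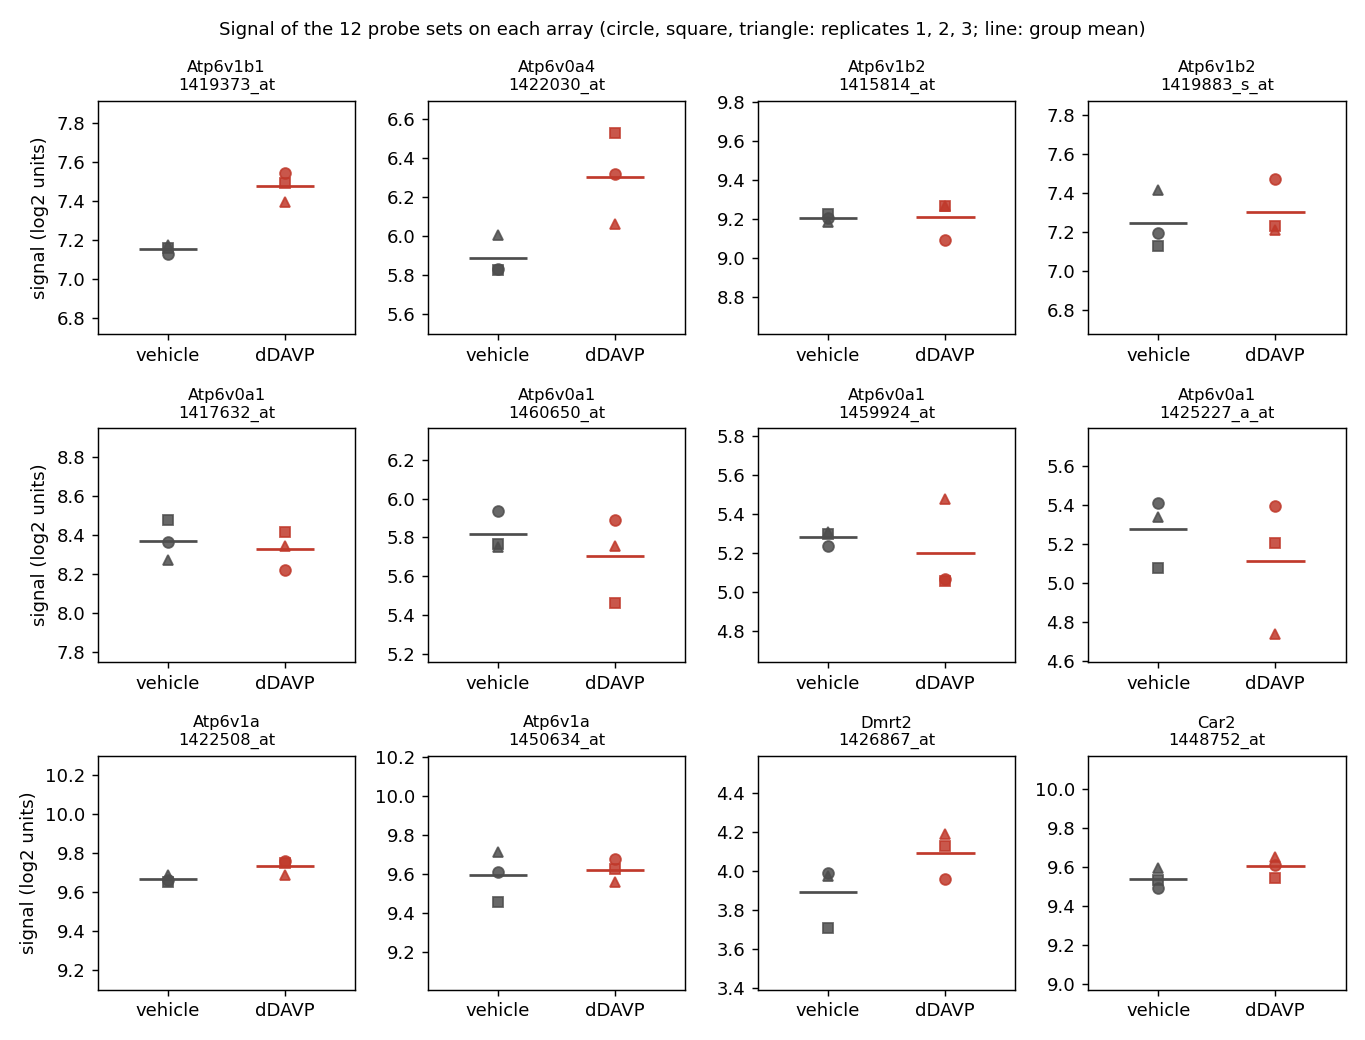
Signal in log2 units (vertical axes, each spanning 1.2 units) of the 12 probe sets on the 3 vehicle and the 3 dDAVP arrays, with replicate numbers as symbols and group means as lines. All dDAVP arrays lie above all vehicle arrays for Atp6v1b1, Atp6v0a4 and 1 Atp6v1a probe set, and the groups overlap for the other 9.

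Atp6v1b1 encodes the B1 subunit of the ATP-splitting sector, the isoform of kidney intercalated cells and the inner ear. Its single probe set measured 7.13, 7.16 and 7.17 log2 units in vehicle arrays and 7.54, 7.49 and 7.39 in dDAVP arrays. The lowest dDAVP array was thus above the highest vehicle array, and the vehicle arrays lay close together. The means were 7.15 ± 0.024 and 7.48 ± 0.076 (SD, n = 3), a change of 0.32 ± 0.063 log2 units (SE). The 95% interval of the fold was 1.13 to 1.39, and the limma adjusted p over all probe sets was 0.153. A rise at least as large was seen in 310 probe sets, or 1.1% of the table.

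Atp6v0a4 encodes the a4 subunit of the membrane sector, through which protons pass, and is the isoform of intercalated cells. It measured 5.83, 5.83 and 6.01 log2 units in vehicle arrays and 6.32, 6.53 and 6.06 in dDAVP arrays. The groups did not overlap, but dDAVP replicate 3 was close to vehicle replicate 3. The means were 5.89 ± 0.10 and 6.31 ± 0.24 (SD, n = 3), a change of 0.42 ± 0.12 (SE). The 95% interval of the change was 0.14 to 0.69, with a limma adjusted p of 0.397. A rise at least as large was seen in 147 probe sets (0.521%).

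Groups that did not overlap, with dDAVP higher, were seen for 3 of the 12 probe sets and for 8.07% of all probe sets. The change of both specialised subunits was positive in each alternative fit that held them, from 0.29 to 0.47 in 15 fits for Atp6v1b1 and from 0.30 to 0.56 in 14 for Atp6v0a4, which lay below the median level and so was left out by that filter. Filters on dim probe sets, other priors and a replicate block alter the SE and p-value but not the estimated change. Only the scalings and left-out arrays could move it. Scaling each array to its hybridisation controls shifted the whole table upward, with a median change of 0.15 in place of 0.0039, and then both passed, at limma adjusted p = 0.0318 and 0.0490. The scaling adds the same amount to every probe set, so relative to that median neither grew. Atp6v1b1 also passed when the dimmer probe sets, those not above the median level, were left out (adjusted p = 0.0373). Over its 15 fits the adjusted p of Atp6v1b1 ran from 0.0318 to 0.764, and over the 14 of Atp6v0a4 it ran from 0.0490 to 0.919. In a bulk sample, more cells of a type and more RNA per cell cannot be told apart.

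The promoters of these 2 genes are shown because the intercalated cell factor Foxi1 belongs to the forkhead family and because the V2 receptor signals through cAMP, whose response element (CRE) is bound by CREB. Each sequence runs 5′ to 3′ on the gene's strand from 250 bases before to 50 bases after the start site, as given by RefSeq on GRCm38.p6. Capitals mark the forkhead core.
Atp6v1b1 (chr6:83742767-83743066, plus strand): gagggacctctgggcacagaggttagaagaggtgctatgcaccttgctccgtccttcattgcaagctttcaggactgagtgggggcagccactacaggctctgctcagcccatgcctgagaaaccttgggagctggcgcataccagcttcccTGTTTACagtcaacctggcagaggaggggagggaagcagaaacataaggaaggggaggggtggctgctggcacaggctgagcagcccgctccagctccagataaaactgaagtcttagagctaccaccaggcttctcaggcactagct
Atp6v0a4 (chr6:38124537-38124836, minus strand): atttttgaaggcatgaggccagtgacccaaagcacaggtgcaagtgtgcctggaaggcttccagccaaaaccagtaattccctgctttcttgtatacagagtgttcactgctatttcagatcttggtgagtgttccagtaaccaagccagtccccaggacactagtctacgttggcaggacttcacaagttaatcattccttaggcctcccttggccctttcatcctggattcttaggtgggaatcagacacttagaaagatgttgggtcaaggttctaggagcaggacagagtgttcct

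Of the 10 genes 7 had a promoter in that table, and Atp6v1b2, Atp6v0d2 and Car2 did not. The forkhead core TGTTTAC, searched on both strands (GTAAACA on the other), was found in 1 of the 7, that of Atp6v1b1, where it begins at position -98 from the start site. It was found in 1199 of 32851 promoters of the same length (3.65%). The full CRE, TGACGTCA, which reads the same on both strands, was in 0 of the 7 and in 1.79% of all promoters. Its shorter core TGACG, searched on both strands and contained in the full CRE, was in 1 of the 7, that of Atp6v1a, and in 20.8% of all. A match of letters is a description and not a bound site.

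Atp6v1b2 encodes B2, the ubiquitous counterpart of B1. Its brighter probe set measured 9.20, 9.23 and 9.19 log2 units in vehicle arrays and 9.09, 9.27 and 9.27 in dDAVP arrays. The dDAVP arrays lay on both sides of the vehicle arrays. The change was 0.0031 ± 0.068 (SE), a fold of 1.00 with a 95% interval of 0.899 to 1.12, and its sign turned under quantile normalization, median centring and scaling to the poly-A controls. The dimmer probe set changed by 0.06 ± 0.10, with overlapping groups.

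Atp6v0a1 encodes a1, the ubiquitous counterpart of a4. Its brightest probe set measured 8.37, 8.48 and 8.27 log2 units in vehicle arrays and 8.22, 8.42 and 8.35 in dDAVP arrays, so the groups overlapped. The change was -0.05 ± 0.080 (SE), with a 95% interval from -0.23 to 0.14. The dimmer 3 probe sets changed by -0.12 ± 0.11, -0.08 ± 0.11 and -0.16 ± 0.17. All 4 changes were negative as deposited, and 3 of the 4 were positive after scaling to the hybridisation controls.

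Atp6v1a encodes the catalytic A subunit, which splits ATP in the pump of every cell. Its brighter probe set measured 9.66, 9.65 and 9.69 log2 units in vehicle arrays and 9.76, 9.75 and 9.69 in dDAVP arrays. The groups did not overlap, by a margin that dDAVP replicate 3 made very small. The change was 0.06 ± 0.056 (SE, limma adjusted p = 0.860), and that of its other probe set was 0.03 ± 0.079 with overlapping groups. The 95% intervals of the 8 probe sets of ubiquitous subunits all included 0.

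**Figure D2:**
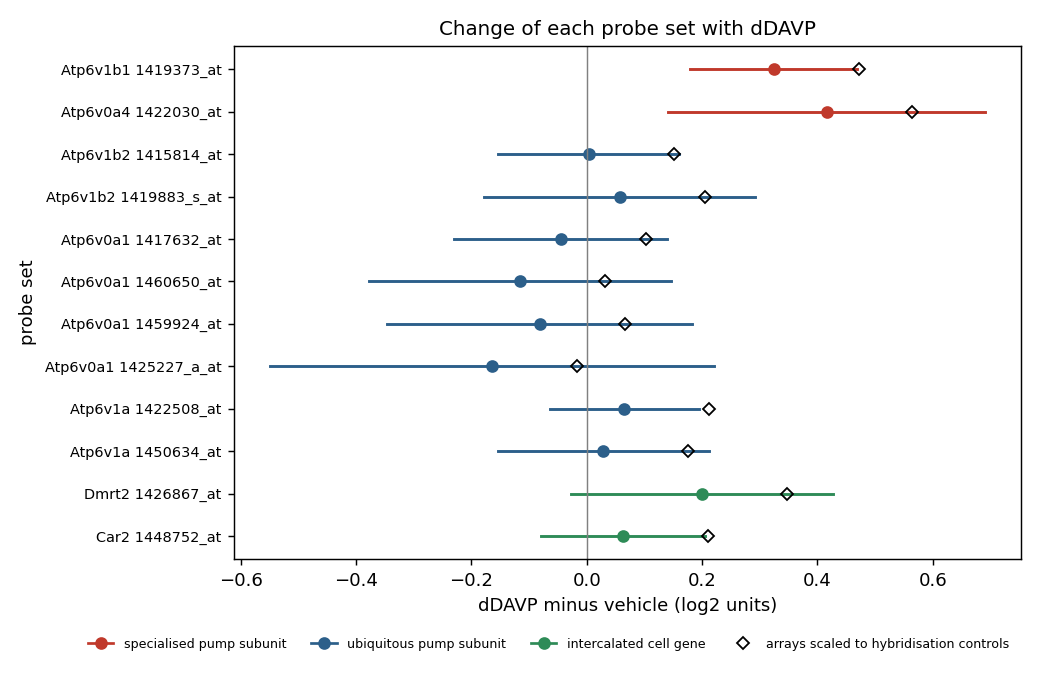
Change with dDAVP (dDAVP minus vehicle, log2 units) of each of the 12 probe sets, with filled points for the limma estimate, bars for its 95% interval and open diamonds for the estimate after scaling to the hybridisation controls. The intervals of Atp6v1b1 and Atp6v0a4 lie above 0 and the other 10 include 0, and the diamonds sit about 0.15 higher throughout, which makes the change of 3 Atp6v0a1 probe sets positive.

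Within an array, the difference between a specialised isoform and its ubiquitous counterpart does not change when a constant is added to that array, as centring or scaling to controls does. Relative to the vehicle mean, the difference of Atp6v1b1 minus Atp6v1b2 was -0.02, -0.02 and 0.04 log2 units in vehicle arrays and 0.50, 0.28 and 0.18 in dDAVP arrays. Every dDAVP array was above every vehicle array, and the spread was wider among dDAVP arrays (SD 0.17 against 0.035). The difference moved by 0.32 log2 units, which is 1.25-fold, and by 0.27 when the dimmer Atp6v1b2 probe set was used. Leaving out dDAVP replicate 1 gave 0.23.

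Atp6v0a4 minus Atp6v0a1 was -0.05, -0.17 and 0.21 log2 units in vehicle arrays and 0.58, 0.60 and 0.20 in dDAVP arrays, again relative to the vehicle mean. Here the groups overlapped, since dDAVP replicate 3 was just below vehicle replicate 3. The difference moved by 0.46 log2 units, or 1.38-fold, with SDs of 0.20 and 0.23. With the other 3 Atp6v0a1 probe sets it moved by 0.50 to 0.58, and the groups were apart for 2 of these 3. Neither shift was tested, because the genes were chosen on this contrast. The pairs Atp6v1c2 with Atp6v1c1, Atp6v0d2 with Atp6v0d1 and Atp6v1g3 with Atp6v1g1 could not be formed, since their specialised partners were not analysed here.

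**Figure D3:**
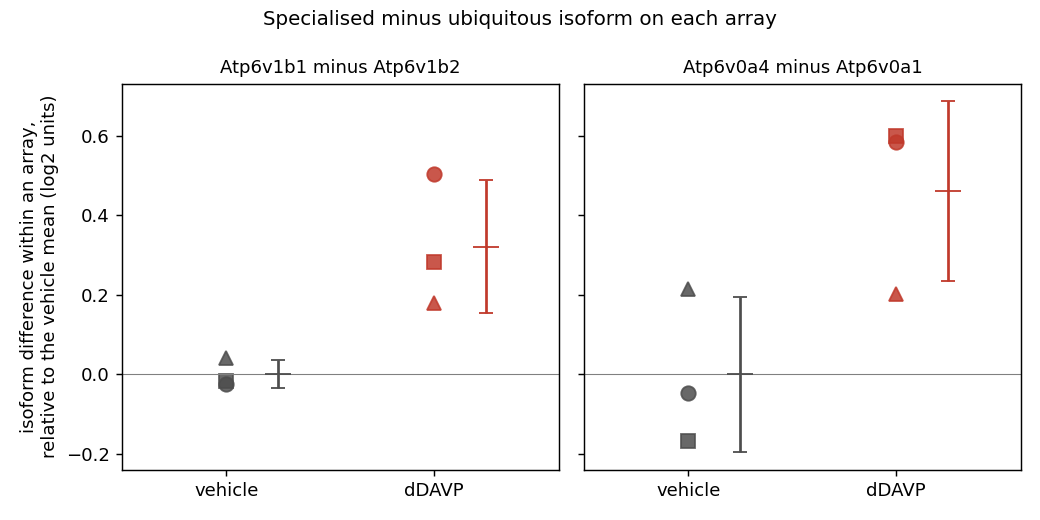
Specialised minus ubiquitous isoform on each array, in log2 units relative to the vehicle mean, for B1 with B2 and a4 with a1, where symbols are replicates and bars are the group mean ± SD (n = 3). The dDAVP arrays lie at 0.18 to 0.50 for the first pair and at 0.20 to 0.60 for the second, where vehicle replicate 3 reaches 0.21.

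Dmrt2, a transcription factor of acid-secreting intercalated cells, was dim. It measured 3.99, 3.71 and 3.97 log2 units in vehicle arrays and 3.96, 4.13 and 4.19 in dDAVP arrays. The groups overlapped at dDAVP replicate 1, and all values lay not far above the limit of 3.56. The change was 0.20 ± 0.098 (SE), with a 95% interval from -0.03 to 0.43 and a limma adjusted p of 0.686. Without vehicle replicate 2, the lowest array, the change was 0.11.

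Car2 encodes cytosolic carbonic anhydrase 2, which supplies intercalated cells with protons and bicarbonate and is also found in principal cells. It measured 9.49, 9.54 and 9.59 log2 units in vehicle arrays and 9.61, 9.55 and 9.65 in dDAVP arrays. The groups overlapped between vehicle replicate 3 and dDAVP replicate 2. The change was 0.06 ± 0.061 (SE), a fold of 1.04 with a 95% interval of 0.947 to 1.15.

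The other subunits of the pump, 14 of 16 listed genes, gave no call (0 higher and 0 lower by limma, against 0.291% of all genes by their brightest probe set). At an unadjusted p below 0.05 there were 0 of the 14, against 7.8% of all genes. By brightest probe sets their median change was 0.04 log2 units, against 0.01 for all genes, and they ranged from -0.08 for Atp6v0e2 to 0.11 for Tcirg1. Atp6v1c1, the ubiquitous C subunit, changed by 0.04 ± 0.060 (SE), Atp6v0d1, the ubiquitous d subunit, by 0.06 ± 0.061 and Atp6v1g1, the ubiquitous G subunit, by -0.03 ± 0.087. The remaining a subunits, chosen after their values were seen, were at -0.01 ± 0.072 for Atp6v0a2 and 0.11 ± 0.077 for Tcirg1, which encodes a3. Dimmer probe sets of Atp6v0a2 were at -0.25 ± 0.11 and 0.02 ± 0.073. Those of Atp6v1g1 were at 0.0089 ± 0.065 and -0.16 ± 0.12, and those of Atp6v1c1 at 0.0095 ± 0.064 and 0.08 ± 0.088. Scaling to the hybridisation controls moved the median of the 14 to 0.19, with that of all probe sets at 0.15.

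Genes that assemble, anchor or regulate the pump were measured for 16 of 19 listed, again with no call by limma (0, against 0.291% of all genes), and 1 had an unadjusted p below 0.05, against 7.8% of all genes. Their median change was 0.02 log2 units. That gene was Slc9a3r1, which encodes the scaffold NHERF1, whose PDZ domains bind the B1 subunit. Its brightest probe set measured 10.78, 10.86 and 10.79 log2 units in vehicle arrays and 10.95, 11.02 and 11.08 in dDAVP arrays. The groups did not overlap and the change was 0.21 ± 0.061 (SE, limma adjusted p = 0.411). Its other 2 probe sets changed by 0.17 ± 0.059 and 0.18 ± 0.066. The next largest increases among subunits and helpers were 0.13 ± 0.084 for Vma21, a chaperone of membrane sector assembly, and 0.11 ± 0.055 for Atp6ap2, the accessory subunit also known as the prorenin receptor. The largest decreases were -0.09 ± 0.056 for Tbc1d24, -0.08 ± 0.068 for Atp6v0e2, a form of the small e subunit, and -0.08 ± 0.082 for Atp6v1e2, a form of the E subunit known from testis. The other 2 Tbc1d24 probe sets were at -0.21 ± 0.14 and 0.07 ± 0.089, and the other Atp6ap2 probe sets were at 0.02 ± 0.060 and 0.12 ± 0.070. None of these 6 genes passed over the whole table.

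Other genes of intercalated cell transport and identity were measured for 18 of 34 listed. By limma 0 of them passed over the whole table, and 4 had an unadjusted p below 0.05, all 4 with higher values in dDAVP, against 0.291% and 7.8% of all genes. Their median change was 0.06 log2 units. The largest increases were 0.48 ± 0.14 (SE) for Spink8, 0.25 ± 0.066 for Parm1 and 0.22 ± 0.092 for Kcnma1, the pore of the large-conductance potassium channel. Spink8 measured 4.83, 5.37 and 5.36 log2 units in vehicle arrays and 5.75, 5.62 and 5.64 in dDAVP arrays. Vehicle replicate 1 was the lowest of the 6 arrays and stood apart from the rest of its group. Kcnma1, at a mean of 2.83, was below the limit of 3.56. The fourth gene, chosen after its values were seen, was Lgals3, or galectin-3, at 0.21 ± 0.058.

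The largest decreases in that list were -0.25 ± 0.12 (SE) for Atp4a, the gastric type proton-potassium pump, -0.20 ± 0.098 for Cp, ceruloplasmin, and -0.14 ± 0.060 for Jag1, a Notch ligand. The other 2 Jag1 probe sets were at -0.03 ± 0.097 and 0.03 ± 0.11, and the second Parm1 probe set was at 0.19 ± 0.076. Cp lay below the limit at a mean of 3.25. Rhcg, the ammonia channel of intercalated and principal cells, also chosen after its values were seen, changed by 0.11 ± 0.074. Groups did not overlap with dDAVP higher in 5 of the 18 genes and with dDAVP lower in 2, against 10.1% and 5.13% of all genes.

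**Figure D4:**
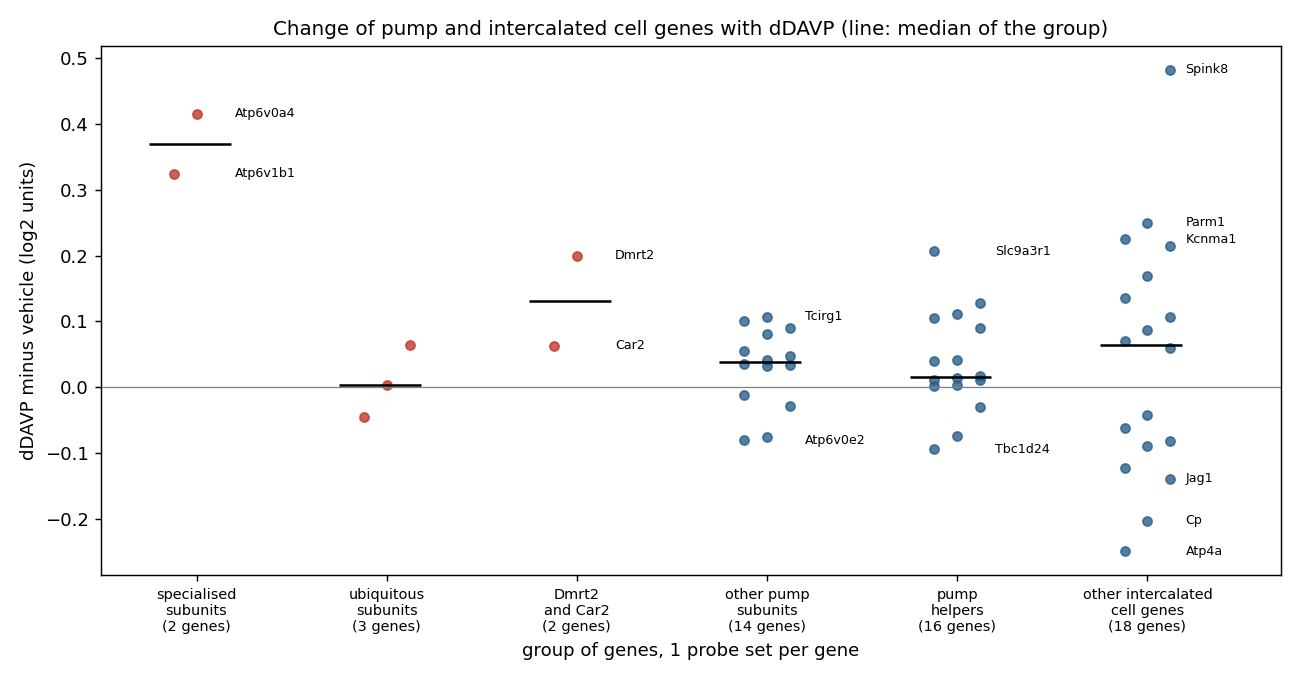
Change with dDAVP (log2 units, vertical axis) of pump and intercalated cell genes, 1 point per gene by its brightest probe set and a line at each group's median, with members in red and other genes in blue. The 14 other pump subunits lie between -0.08 and 0.11, below Atp6v1b1 at 0.32 and Atp6v0a4 at 0.42, while the 18 other intercalated cell genes spread from -0.25 to 0.48.

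Markers of other cell types were few on the table. The 6 intercalated markers had mean levels of 6.12 to 6.18 log2 units per array with vehicle and 6.27 to 6.36 with dDAVP, and the 10 principal cell markers had 7.32 to 7.38 and 7.90 to 7.98. Without Atp6v1b1 and Atp6v0a4, on whose change the genes were chosen, the other 4 intercalated markers had 5.93 to 5.98 and 6.03 to 6.07, a mean change of 0.09 against 0.18 for all 6. Without Aqp2 the other 9 principal cell markers had 7.40 to 7.45 and 7.58 to 7.65, a mean change of 0.19 against 0.59 for all 10, whose median change was 0.19. By limma 3 of the 10 principal cell markers and 0 of the 6 intercalated markers passed, against 0.291% of all genes. Those called were Aqp2, Fxyd4 (0.68 ± 0.069, SE) and Avpr2 (0.52 ± 0.065). Negative changes were seen for Hsd11b2 (-0.04), Gata3 (-0.08) and Elf5 (-0.0049). Thick ascending limb and endothelium had 1 measured marker each, Slc12a1 and Cdh5, and both were below the limit. Their means per array were 2.87 to 3.02 with vehicle and 2.85 to 2.95 with dDAVP for Slc12a1, and 3.01 to 3.23 and 2.96 to 3.16 for Cdh5. For proximal tubule 1 of 2 was above the limit, with Lrp2 at a mean of 8.30 and Aqp1 at 3.43. The average of both per array was 5.80 to 5.98 with vehicle and 5.83 to 5.86 with dDAVP. For fibroblasts 1 of 1 was above the limit (3.46 to 3.78 and 3.54 to 3.72). For leukocytes 3 of 4 were above it, and the average of all 4 per array was 5.63 to 5.68 with vehicle and 5.68 to 5.74 with dDAVP. No marker of those 5 types passed by limma (0, and 1 at an unadjusted p below 0.05, against 0.291% and 7.8% of all genes). The part of any other cell type in the values of the pump genes was not tested.

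Across the 6 arrays, among probe sets above the median level, the signals most like Atp6v1b1 were those of Smap2 (Pearson r = 0.999), Zfp622 (0.996) and Me1 (0.995). Spearman's rho was 1, 0.943 and 0.943. For Atp6v0a4 they were Kif1b (0.997), Alg9 (0.991) and Fdps (0.990), with rho of 1, 0.943 and 0.943. None of these 6 genes passed over all probe sets by limma. They are the highest among about 12762 probe sets, over 6 arrays that share 1 treatment contrast, and are given as a description.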

How the data were processed

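The values are log2 signals of probe sets as the authors deposited them. MAS5, RMA and Affymetrix Expression Console 1.1 are listed by the submitters' processing notes, and which of them made the values is not given in the sources. Summarising probes can compress the changes of dim probe sets. Trizol extraction and biotin labelling were used, per the labels' protocols. No read depth applies, and the number of arrays limits the precision.

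Groups came from the sample titles. Gene names are those of the platform annotation, leaving out those with several genes. The 62 control probe sets were left out, and 28225 were fitted in limma 3.58.1 (R 4.3.3, lmFit and eBayes, 4 residual degrees of freedom) as dDAVP against vehicle. P-values were adjusted by Benjamini-Hochberg over all of them, with a threshold of 0.05. SDs are over 3 arrays, and SEs and intervals are moderated. A gene in a list or a pair is its probe set with the highest mean. The code was tested on simulated data, and figures were drawn with matplotlib 3.10.9.

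The members and the lists were chosen with earlier results of these data known. Named genes are the members, the partners of isoform pairs, in each list (subunits with helpers, and intercalated cell genes) any called gene and the 3 largest changes each way, and the 3 genes most correlated with Atp6v1b1 and with Atp6v0a4. Aqp2 is a reference for the treatment. Aqp6, Csf1r, Ptprc, Cd68, Cd74, Lrp2, Aqp1 and the other principal cell markers given with values fall outside this rule and were chosen after their values were seen. Alternatives were 4 scalings, 2 filters on dim probe sets, 2 priors, the replicate number as a block, each array left out, a threshold of 0.01 and averaging the probe sets of a gene.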

Additional observations from a re-analysis of the deposited data

How the results depend on the processing

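The number of arrays, 3 per group, and the dimness of Dmrt2 and Kcnma1 limit these values. Both isoform shifts kept their direction under quantile normalization, averaged probe sets and left-out arrays. They ran from 0.23 to 0.39 log2 units for B1 with B2 and from 0.38 to 0.59 for a4 with a1. Median centring, scaling to controls and the block cannot change these shifts, so nothing is drawn from those settings. The filters and priors were not run on them. In the main analysis 61 probe sets passed, 86.9% of them higher. Scaling to the hybridisation controls gave 282 (97.5% higher), with 2 members past the threshold and 5 at an unadjusted p below 0.05. Leaving out the dimmer probe sets, 5 of the 12 members among them, gave 95, with 1 member past the threshold and 1 at an unadjusted p below 0.05. A trended prior gave 146, and a threshold of 0.01 gave 23. Leaving out 1 array gave 22 to 46. Small changes turned sign. Atp6v1b2 went to -0.0048 under quantile normalization, -0.0091 under median centring and -0.021 with poly-A scaling. With hybridisation control scaling Atp6v0a1 went to 0.10, 0.032 and 0.066 on 3 probe sets. Leaving out 1 array, the changes ran from -0.026 to 0.061 and -0.026 to 0.14 for Atp6v1b2, from -0.039 to 0.087 for the dimmer Atp6v1a probe set, and from -0.095 to 0.0084, -0.21 to 0.0043 and -0.30 to 0.024 for Atp6v0a1. Apart from the constants that centring or scaling to controls adds to each array, the cause was not tested. The labels share replicate numbers but name no batch, so the numbers were not taken as pairs. Deviations of same-numbered arrays correlated at 0.196, 0.046 and -0.052, which with 3 arrays per group cannot exclude a pairing. With the replicate number as a block, 24 probe sets passed, and 3 of the 6 arrays correlated best with their own number. No member passed in that fit (0).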

Other observations

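Aqp6, an anion-conducting water channel of intercalated cell vesicles, had 4 probe sets that did not move together. The brightest was at -0.08 ± 0.056 (SE), and the others at 0.18 ± 0.14, -0.20 ± 0.13 and 0.12 ± 0.078. Csf1r, a receptor of macrophages, had a mean signal of 9.36 log2 units in this epithelial line. Ptprc, which marks leukocytes as a whole, was at 3.21, below the limit for dim probe sets. The other measured leukocyte markers, Cd68 at 5.56 and Cd74 at 4.61, were above that limit. None of the 4 passed the limma test over all probe sets, with changes of -0.13 for Csf1r, 0.22 for Ptprc, 0.20 for Cd68 and -0.02 for Cd74. Cd68 had an unadjusted limma p below 0.05, as did 7.8% of all genes.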
